A study of Homo sapiens with 3 samples.

Results

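In the peaks called in AMOT RNA recovered with HA-tagged HNRNPA0, most reads lay in a single site close to the 3' end of the gene. That site was among the strongest of the nuclear genome in each of 3 replicates. Reads outside peaks were not analysed. AMOT encodes angiomotin, a scaffold protein of cell junctions. The peaks described here are those whose names carry the Ensembl gene ID ENSG00000126016 and that lie on the minus strand, and there were 29 of them among 48938 distinct peaks. All 29 fell inside the AMOT interval of the RefSeq gene table (GRCh38.p14), on X from 112774877 to 112840831 (hg38), a span of 65955 bp. The gene and the site were chosen by the read numbers of these same peaks, so those values are given as a description and carry no test.

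The 3 replicates formed 1 group of HEK293T cells, a human embryonic kidney line that carries the SV40 large T antigen, with the genotype given as WT. A vector for HA-tagged HNRNPA0 (750 ng) was transfected, so the protein was supplied in addition to that of the cell, and RNA bound to it was fixed with UV light of 254 nm, recovered on anti-HA beads and cut with RNase I (easyCLIP). No library without the tagged protein was used here, and RNA levels were not measured, so strong binding, abundant RNA and RNA recovered without the protein cannot be told apart, nor could the cell line be checked against its markers. Replicate adapters were barcoded before the libraries were pooled, and nothing in the labels says whether the replicates came from separate transfections.

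Angiomotin links the actin cytoskeleton to tight junction and polarity proteins. In the Hippo pathway the kinases STK3 and STK4 activate LATS1 and LATS2, which phosphorylate both the coactivator YAP1 and angiomotin, and angiomotin can hold YAP1 outside the nucleus or at junctions. HNRNPA0 belongs to the hnRNP A/B family and is known for binding AU-rich elements in messenger RNAs. The series concerns RNA G-quadruplexes, which are stacked structures of guanine-rich RNA, and the proteins that bind them.

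The strong site spanned 456 nt, on X from 112776986 to 112777441, which is 0.691% of the gene length. On the minus strand its nearer edge lies 2109 nt before the 3' end of the gene and its other edge lies 63390 nt after the 5' end. The RefSeq table used here gives gene intervals without exons, so whether the site is exonic, intronic or untranslated was not determined. Each peak carried a whole number in its name that is taken for its number of reads and called the read number. Inside the site the read numbers summed to 259, 207 and 239 in replicates 1, 2 and 3. In the remaining 65499 nt of the gene they summed to 52, 68 and 84. The site therefore held 83.3%, 75.3% and 74.0% of the summed read number of AMOT, or 77.5% ± 5.03 (SD, n = 3). Per kilobase of gene the summed read number was 515 ± 57.5 inside the site and 1.04 ± 0.244 outside it (SD, n = 3). Peaks covered 92.5%, 70.4% and 78.5% of the site in replicates 1, 2 and 3, and 0.284%, 0.470% and 0.879% of the remaining gene. Reads outside peaks were not analysed, so the values per kilobase compare reads in called peaks and not read coverage. Their ratio was 715, 437 and 409 in replicates 1, 2 and 3. It was lowest in the list with the most weak peaks elsewhere in the gene.

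**Figure D1:**
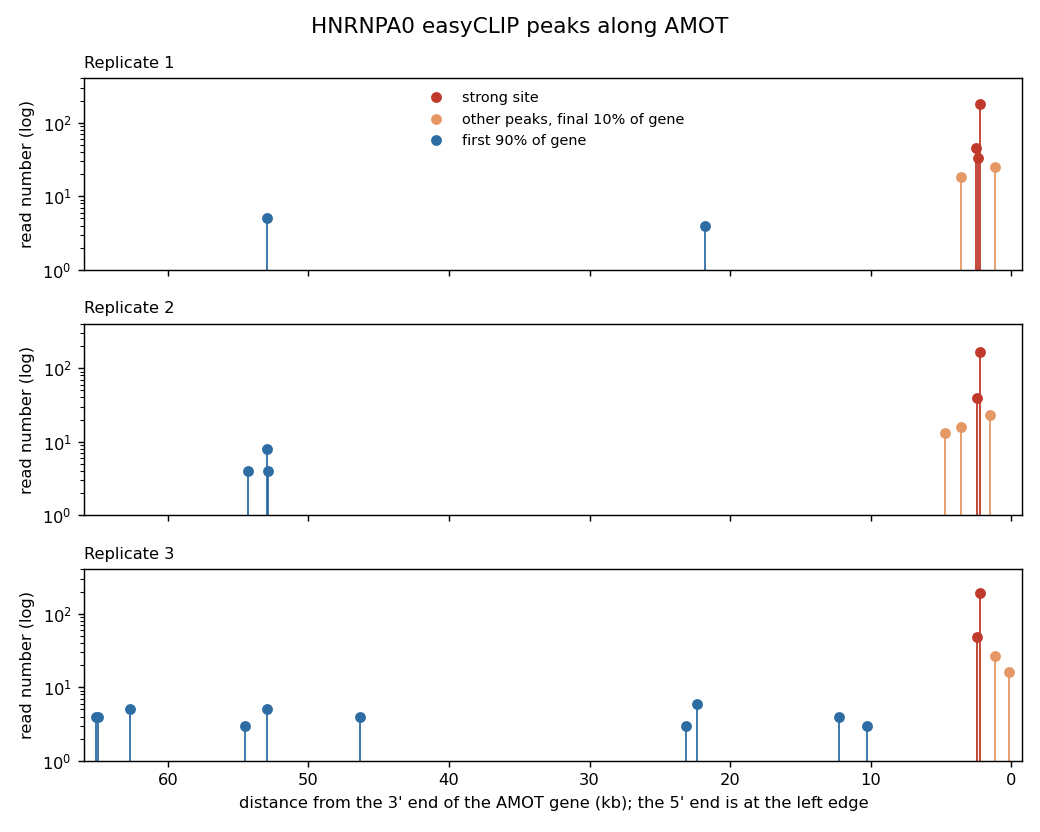
Read number of each AMOT peak (logarithmic axis) against its distance from the 3' end of the gene in kilobases, with replicates 1, 2 and 3 from top to bottom. The strong site stands 7.24, 7.30 and 7.07 times above the highest peak elsewhere in the gene, and peaks in the first 90% of the gene do not exceed a read number of 8.

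The site was made of a high peak and a lower shoulder on its 5' side. The high peak had read numbers of 181, 168 and 191, a mean of 180.0 ± 11.5 (SD, n = 3), and widths of 222, 205 and 216 nt. Its edges agreed closely between the lists, from 112776986, 112776990 and 112776992 to 112777207, 112777194 and 112777207. The authors' p-values for it were 8.68e-234, 1.41e-213 and 1.47e-245, which ranked 5, 9 and 9 among the nuclear peaks of the lists. The peaks with a p-value of exactly 0, which numbered 3, 7 and 7, were all ranked ahead of it. By itself the high peak held 59.5% ± 1.48 of the summed read number of AMOT (SD, n = 3).

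Each deposited peak also marks a stretch of at most 4 nt inside it, which the files do not name. In the high peak that stretch began at 112777129, 112777124 and 112777123, a spread of 6 nt over the replicates. It lay 78, 70 and 84 nt from the 5' edge of the peak, and so on the 5' side of the middle in every list. The spread was not unusual for a peak of this height. Among 39 other nuclear regions found in all 3 replicates with a mean highest read number of 100 or more, the median spread was 7 nt and 38.5% had a spread of 6 nt or less. Over all 2334 other nuclear regions found in all 3 replicates the median spread was 22.0 nt, and 11.1% were as tight.

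The shoulder, a region from 112777208 to 112777441, was less regular than the high peak. It was split into peaks of 33 and 45 in replicate 1, with 34 nt between them, and was a single peak of 39 in replicate 2 and of 48 in replicate 3. Its summed read number was 78, 39 and 48, so replicate 1 stood above the other two. In replicates 1 and 3 the shoulder touched the high peak with no gap, whereas 59 nt lay between them in replicate 2. The marked stretches of its highest peaks were spread over 70 nt. Touching peaks may hold some of the same reads, so sums over the site do not count molecules, and binomial intervals were not attached to the shares. Counting each run of touching peaks once, at its highest peak, gave a share of 75.3% for the site.

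**Figure D2:**
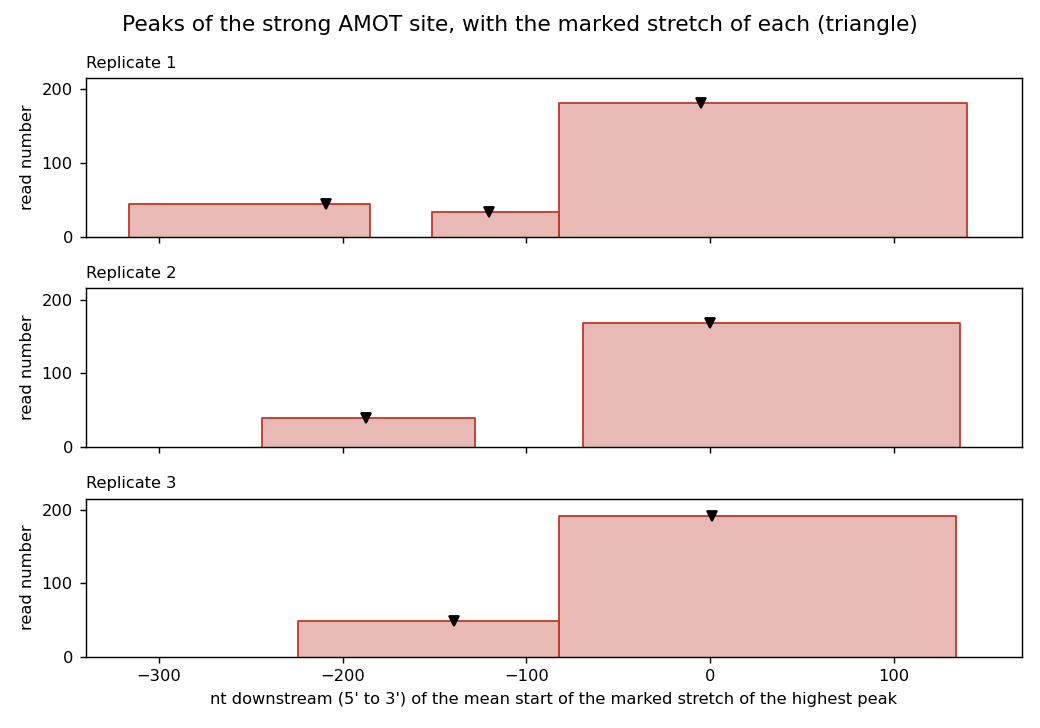
Peaks of the strong site in replicates 1, 2 and 3 from top to bottom, drawn at their width (nt, 5' to 3' from left to right) and read number, with a triangle at the marked stretch of each. The stretches of the high peak begin within 6 nt of each other, while the shoulder on its 5' side differs in extent between lists.

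A second class of AMOT peaks lay elsewhere in the final 10% of the gene, with intermediate read numbers and a poor match between replicates. The nearest region outside the site was 548 nt away on its 3' side and 1020 nt away on its 5' side. There were 7 such peaks, with read numbers of 13 to 27, in 5 merged regions. A region joins peaks of the 3 lists wherever they share at least 1 bp of the same strand. The region from 112775974 to 112776029 had read numbers of 25 in replicate 1 and 27 in replicate 3, with no peak in replicate 2. The region from 112778462 to 112778483 had 18 in replicate 1 and 16 in replicate 2, with no peak in replicate 3. Replicate 2 alone held the regions from 112776383 to 112776437, with 23, and from 112779609 to 112779622, with 13. Replicate 3 alone held the region from 112775032 to 112775061, with 16, the AMOT peak nearest to the 3' end. Their summed read number was nevertheless similar in the lists, at 43, 52 and 43, or 15.3% ± 3.09 of the AMOT total (SD, n = 3).

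None of these 7 peaks belonged to a region shared by all 3 replicates, whereas 72.4% of 2336 other nuclear peaks with read numbers from 13 to 27 did. This range of read numbers was chosen after the AMOT values were seen, and no test was made of the difference. The AMOT peaks were also narrow, at 14 to 56 nt with a median of 30 nt, against a median of 92.0 nt for the other nuclear peaks of those read numbers. Among 467 other nuclear peaks with the same read numbers and a width of 56 nt or less, 66.4% belonged to a region shared by all 3 replicates. A position without a peak in a list is not a position without reads, because reads outside peaks were not analysed here.

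The first 90% of the gene held scattered weak peaks. There were 2, 3 and 10 of them in replicates 1, 2 and 3, with read numbers between 3 and 8 and a summed read number of 9, 16 and 41. Replicate 3 thus accounted for 10 of the 15. This part held 12.7% of the summed read number of AMOT in replicate 3, compared with 2.89% in replicate 1 and 5.82% in replicate 2. That list was also the longest, with 17791 distinct peaks against 15661 and 15486, and it had a nuclear summed read number of 114203 against 100038 and 99141. The part of these differences in the AMOT result was not tested. The highest weak peak had a read number of 8, below the lowest value of 13 in the rest of the final 10% of the gene, so the 2 classes did not overlap.

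A single weak region of the first 90% recurred in every list. It lay on X from 112827818 to 112827905, 12926 nt after the 5' end of the gene, with read numbers of 5, 8 and 5. Its marked stretches began within 6 nt of each other, as in the high peak. It supplied 3 of the 15 weak AMOT peaks, and 9.46% of 42531 other nuclear peaks with read numbers from 3 to 8 belonged to a region shared by all 3 replicates. The authors' p-values for it were 0.00316, 1.57e-04 and 0.00747. With only the 50% of peaks of lowest p-value in each list, this weak region was no longer found in all 3 replicates. With an overlap of 50% of both peaks required it was, whereas the shoulder of the strong site was not. The peak nearest to the 5' end of the gene lay 783 nt after it, in replicate 3 alone, with a read number of 4.

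In total AMOT had 7, 8 and 14 peaks, which merged into 20 regions. Of these, 3 were found in all 3 replicates, namely the high peak, its shoulder and the weak region in the first 90% of the gene, while 2 were found in 2 replicates and 15 in 1. Over the whole series 6.23% of 38104 merged regions were found in all 3 replicates and 12.6% in 2. The final 10% of the gene held 97.1%, 94.2% and 87.3% of the AMOT read number, a mean of 92.9% ± 5.03 (SD, n = 3).

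No other gene ID had a peak close to AMOT on the chromosome. In the lists used here the nearest peak of another gene ID lay 1036853 nt beyond the 3' end of AMOT and 2271983 nt beyond its 5' end, on either strand, and none lay inside the gene. Within that stretch of 3374789 nt the RefSeq table places 6 other protein-coding genes. They hold no peak because the stretch was drawn between the nearest peaks of other gene IDs. Over all protein-coding genes 27.6% had a peak in any replicate, so a set of this size can be expected to hold few such genes. The nearest genes on the 3' side, the pseudogene HMGB3P30 and LHFPL1, a gene of a tetraspan membrane protein, held no peak, nor did LOC107985651 and RN7SL266P on the 5' side. MIR4329, a microRNA gene inside the AMOT interval, lies 3277 nt from the strong site, and the nearest AMOT peak was 1096 nt from it.

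The strongest AMOT peak ranked 5 among 6566 nuclear gene IDs by the mean of the highest read number over the replicates, and ranked 4, 5 and 4 in replicates 1, 2 and 3. Scaled to 100000 nuclear read numbers it was 181, 169 and 167, or 173 ± 7.35 (SD, n = 3), and AMOT as a whole held 0.290% ± 0.0180 of the nuclear summed read number. Ranked by summed read number instead, AMOT came 16. Directly above it stood HSP90AA1, the inducible cytosolic HSP90 chaperone, with 210, 212 and 224, which did not overlap the AMOT values of 181, 168 and 191. Above that came the ID whose peaks lie in the selenocysteine transfer RNA gene TRU-TCA1-1, with 134, 258 and 335, and the ID shared by the kinesin gene KIF5C and its antisense RNA KIF5C-AS1, with 350, 265 and 128. Both ranges include that of AMOT, so the order among these 3 is not set beyond the spread of replicates.

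Directly below AMOT stood NUCKS1, a chromatin-associated protein, with 168, 163 and 172, and RN7SK, the RNA that holds the elongation factor P-TEFb inactive, with 134, 141 and 181. Both overlapped AMOT in range. SNORD3A, a gene of the U3 small nucleolar RNA, had 146, 139 and 152 and lay wholly below AMOT. The AMOT peak varied little between replicates, with a coefficient of variation of 6.41%. Among 40 other nuclear gene IDs with a mean highest read number of 50 or more the median was 15.0%, and 6 varied no more than AMOT.

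**Figure D3:**
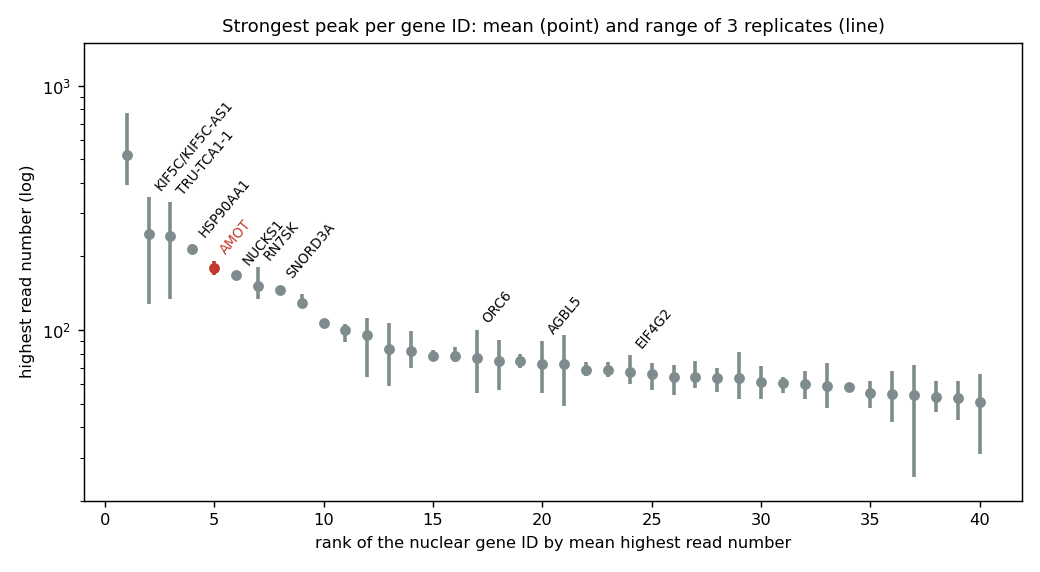
Highest read number (logarithmic axis) of the 40 leading nuclear gene IDs in order of the mean, with points for means and lines for the range over 3 replicates. AMOT, in red, spans 168 to 191, wholly below HSP90AA1 and overlapping NUCKS1 and RN7SK.

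AMOT combined several peaks per list with a high concentration of its read number in its strongest site. Of its 20 regions, however, 15 were found in 1 replicate only. Its mean number of peaks was 6.33 at a read number of 5 or more. Concentration was measured as the share of a gene ID's summed read number that fell in its strongest run of touching regions. It was taken over the 210 nuclear gene IDs with peaks in all 3 lists and a mean highest read number of 20 or more. The share was 77.5% for AMOT, with 9.67 ± 3.79 peaks per replicate (SD, n = 3), against a median of 37.8% for the other 209, of which 38 had a share as high or higher. Most of these had few peaks. Among 142 others with 5 or more peaks on average, a number chosen after the values were seen, the median share was 27.9%. Only ENSG00000139971, which was not tied to a RefSeq gene, had a higher share, at 93.6% ± 2.04 (SD, n = 3). Its highest read numbers averaged 50.7 ± 17.9 (SD, n = 3). Close below AMOT were ENSG00000171723, with a mean share of 71.2% and 5.67 peaks, and ENSG00000186432, with 69.8% and 9.67 peaks.

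The genes set beside AMOT fell on either side of it in this respect. ORC6, a subunit of the origin recognition complex, and AGBL5, a tubulin deglutamylase, had single strong sites with almost no other peak. ORC6 had 1.33 ± 0.577 peaks and a share of 97.9% ± 3.61, and AGBL5 had 1.67 ± 0.577 peaks, all in its strongest site (SD, n = 3). Their highest read numbers, 76.7 ± 22.5 and 72.3 ± 17.5 (SD, n = 3), were below every AMOT value. KIF5C/KIF5C-AS1 had all of its 2.67 ± 1.15 peaks in a site of 95 nt (SD, n = 3). NUCKS1 reached a peak height that overlapped that of AMOT but had 20.7 ± 2.52 peaks and a share of 14.2% ± 0.784, with 12 regions in all 3 replicates (SD, n = 3). EIF4G2, a translation initiation factor homologue, had 24.0 ± 4.58 peaks and a share of 17.5% ± 6.63 (SD, n = 3).

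The 5 gene IDs most like AMOT were found by Euclidean distance over 3 standardised values, which were the log2 mean highest read number, the share in the strongest site and the log2 mean number of peaks. They were HSP90AA1 at a distance of 1.06, RN7SK at 1.15, HNRNPA0 at 1.40, MALAT1/TALAM1 at 1.45 and TRU-TCA1-1 at 1.64. HSP90AA1 held 82.1% ± 2.87 of its read number in a site of 217 nt, with 4.33 ± 1.15 peaks (SD, n = 3). RN7SK held 64.0% ± 3.51 in 120 nt (SD, n = 3). HNRNPA0, whose sequence the vector also carries, held 61.1% ± 3.32 in 385 nt, and its highest read numbers averaged 95.3 ± 27.2 (SD, n = 3). MALAT1, a noncoding RNA of nuclear speckles, is overlapped by its antisense RNA TALAM1, and their share of 44.2% ± 17.2 differed most between replicates (SD, n = 3).

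**Figure D4:**
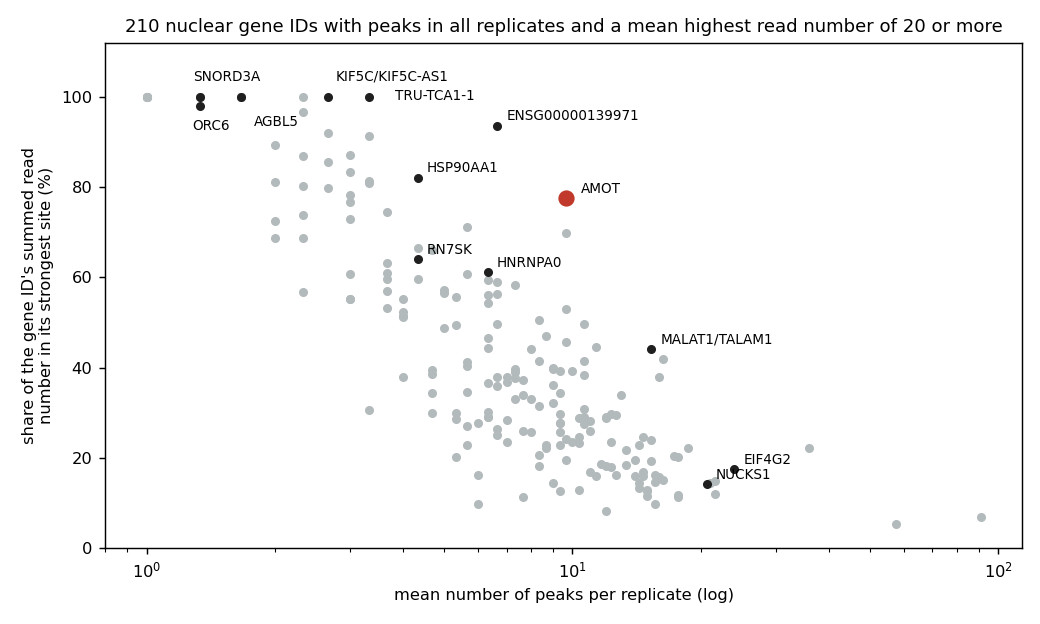
Share of a gene ID's summed read number in its strongest site (%) against its mean number of peaks per replicate (logarithmic axis), for 210 nuclear gene IDs. AMOT, in red, has a share of 77.5% with 9.67 peaks, apart from NUCKS1 and EIF4G2 at lower right and from ORC6, AGBL5 and KIF5C/KIF5C-AS1 at upper left.

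Neither AMOT paralog held a peak near the height of the strong site. AMOTL1, an angiomotin-like protein, had 6, 7 and 4 peaks with highest read numbers of 4, 7 and 4 and no region in all 3 replicates. AMOTL2, the other paralog, had no peak in any list. RNA levels of the 3 genes were not measured here, so this order of peak heights can reflect levels of the RNAs as well as binding.

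Other genes of the pathway held weaker peaks. Besides AMOT, 55 genes were listed. They were its paralogs, other Hippo pathway genes, YAP1 target genes, junction and polarity partners, and genes of angiomotin turnover. Of these 55, 30 had a peak in any replicate, or 54.5%, against 27.6% of 20056 protein-coding genes. Of the same 55, 9 had a region in all 3 replicates, or 16.4%, against 6.00% of protein-coding genes. The 55 genes were longer, with a median length of 129221 bp against 24092 bp for all protein-coding genes. The part of length in those shares was not tested. For those with a peak among the 55, the median of the mean highest read number over the replicates was 5.17. Over all protein-coding genes with a peak it was 3.33. A list without a peak counted as 0 in these means, so they reflect recurrence between lists as well as height. PALS1 was counted as a gene without a peak, because peaks in its interval were named jointly with an overlapping gene. None of the others among the 55 reached a mean above 17.0, compared with 180.0 for AMOT.

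Of the 7 genes of the kinase cassette, 4 held a region in all 3 replicates, or 57.1%, against 6.00% of protein-coding genes. The 7 genes had a median length of 86318 bp against 24092 bp for all protein-coding genes, and the part of length in this share was not tested. SAV1, the adaptor of STK3 and STK4, had highest read numbers of 9, 10 and 18 and 1 region in all 3 replicates. MOB1A, the coactivator of LATS kinases, had 14, 11 and 10 and 3 such regions. STK4 had 6, 10 and 9 with 2 regions, and LATS1 had 8, 7 and 9 with 1. STK3 and MOB1B had peaks but no region in all 3 replicates, and LATS2 had no peak.

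Among the 14 upstream regulators 8 had a peak, or 57.1%, against 27.6% of protein-coding genes. Their median length was 169759.5 bp against 24092 bp for all protein-coding genes, and the part of length in this share was not tested. None of the 14 held a region in all 3 replicates, and with 6.00% of protein-coding genes holding 1, a list of this size can be expected to hold few or none. By the mean of the highest read number TAOK1, a kinase that activates the cassette, came first among the 14, with 14, 7 and 5. PTPN14, a phosphatase that binds YAP1, came next, with 4, 9 and 8. YAP1 itself had 10, 6 and 4 with no region in all 3 replicates, and TEAD1, a transcription factor that recruits YAP1 to DNA, had 7, 7 and 14 with 1 region. WWTR1, TEAD2, TEAD3 and TEAD4 had no peak. Of the 5 YAP1 target genes CCN1, CCN2, ANKRD1, AXL and AJUBA, 1 had a peak, namely AJUBA, in replicate 2. With 27.6% of protein-coding genes holding a peak, a list of 5 can be expected to hold few such genes. The 5 target genes were also short, with a median length of 8992 bp against 24092 bp for all protein-coding genes. The part of length in this count was not tested.

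Of 12 junction and polarity partners 1 held a region in all 3 replicates, or 8.33%, close to the 6.00% of protein-coding genes. This was LIN7C, a scaffold of the Crumbs polarity complex, with highest read numbers of 12, 9 and 17 and 2 such regions. Peaks in the interval of PALS1 were named jointly with GPHN, which overlaps it, and were not counted. PALS1 thus stands among the 12 as a gene without a peak. Of 8 genes of angiomotin turnover 3 held a region in all 3 replicates, or 37.5%, against 6.00% of protein-coding genes. The 8 genes had a median length of 158916 bp against 24092 bp for all protein-coding genes, and the part of length in this share was not tested. USP9X, a deubiquitinase that acts on angiomotins, had 15, 18 and 18 with 3 regions. By their mean these read numbers were the highest of the listed genes other than AMOT, with PALS1 left out. ITCH, a ubiquitin ligase, had 8, 6 and 7, and TNKS2, a tankyrase that marks angiomotins for degradation, had 9, 5 and 11, each with 1 region. NEDD4 and NEDD4L, ubiquitin ligases of the same family as ITCH, had no peak.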

How the data were processed

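The authors deposited 1 peak list per replicate, so peaks were called per sample. The submitters' processing notes name the build hg38 and the tools bedtools and deepTools. Which aligner and peak caller were run, and whether molecular identifiers were used, is not given in the sources used here. Every deposited line holds a p-value from the authors' caller, all at most 0.05, with no adjustment stated. It also holds the other values used here, a name ending in a whole number, read here as the reads in the peak, and a marked stretch.

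Python 3.11.15 was used, with figures from matplotlib 3.10.9, and calculations were tested on simulated lists. Identical intervals under several gene IDs were counted once, which removed 577, 574 and 711 lines. Gene IDs were named by RefSeq intervals holding at least 90% of their peak centres. Where a symbol had several IDs the one with most peaks was used. A listed gene is said to have no peak where no gene ID took its name. Nuclear means outside the mitochondrial genome. No test was made, since 1 group of 3 replicates allows no comparison of conditions.

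The named genes were AMOT, its paralogs, listed genes with recurring peaks, and neighbours in rank and on the chromosome. Also named were the 5 genes most like AMOT, and KIF5C, AGBL5, ORC6, NUCKS1 and EIF4G2. AJUBA, listed genes with no peak, ENSG00000139971, ENSG00000171723 and ENSG00000186432 were named after their values were seen. The members, the lists and the comparisons were chosen with earlier results of these data known. Alternatives varied the overlap, p-value and read number limits, replicates needed, site boundary, peak assignment and ranked value, and left out each replicate.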

Additional observations from a re-analysis of the deposited data

How the results depend on the processing

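Of 38 values under alternatives, 30 moved by less than the spread of replicates or, for counts, by no more than 1.5 times, and 8 moved further. The share of the strong site was 59.5% when the site was taken as the high peak's region alone, since the shoulder was then outside it, and 74.6% to 79.3% with each replicate left out. The mean number of AMOT peaks was 6.33 with the 50% of peaks of lowest p-value in each list and 6.33 at a read number of 5 or more, both of which drop weak peaks, and 7.50 to 11.0 with each replicate left out. AMOT had 5 regions when 2 or more replicates sufficed and 3 to 4 with each replicate left out. The mean highest read number ranged from 174 to 186 and the rank stayed at 5 with each replicate left out, while the rank by summed read number was 16. Of the 56 listed genes, AMOT included, 10 held a region in all 3 replicates, 18 when 2 or more replicates sufficed, 6 at a read number of 5 or more, and 14 to 16 with each replicate left out, when a region needed 2 lists; without replicate 2 it was 16. No paired analysis was possible because the series has 1 group. Depth is known only as read numbers in peaks, so a gene or position without a peak may still have reads.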
